A study of Sus scrofa with 12 samples.

Results

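The genes described here are 10 transcripts that growth factor signalling through the kinase ERK switches on in many cell types and whose products then act on the same pathway. They are the phosphatase genes DUSP1, DUSP4, DUSP5 and DUSP6, the Sprouty and Sprouty-related genes SPRY1, SPRY2, SPRY4 and SPRED1, and the ETS transcription factor genes ETV4 and ETV5. They were chosen by name, with earlier results of these data known, and each matched 1 of the 24358 genes in the expression tables.

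In the ERK pathway, a ligand such as an FGF binds its receptor tyrosine kinase, RAS is loaded with GTP, and RAF, MEK and ERK are phosphorylated in turn. Phosphorylated ERK enters the nucleus and raises transcription of immediate early genes and of its own antagonists, so that levels of DUSP6, SPRY4 and ETV4 or ETV5 are often read as a record of recent FGF and ERK activity. In mouse embryonic stem cells this pathway is known for promoting exit from the naive state, whereas primed pluripotent cells of several mammals depend on FGF together with Activin A.

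RNA was sequenced from pig induced pluripotent stem cells derived from pericytes (PC-iPS), in 4 groups of 3 libraries. WT PC-iPS carried no reporter, and the knock-in positive cells (knock-in) carried a tdTomato cassette at NANOG. The other two groups were, per the study's methods, knock-in cells given Activin A, a ligand of the TGF-β family that signals through SMAD2 and SMAD3, or SB431542, which inhibits the type I receptors for Activin and TGF-β. The labels give the stage of all samples as adult and their culture system as LCDMV, a medium with LIF, CHIR99021, dimethindene maleate, minocycline hydrochloride and vitamin C. The study's text, however, describes treatment with Activin A or SB431542 in this medium without LIF, and the labels give neither dose nor duration for the sequenced libraries. The knock-in populations were mixed, since cells could carry the cassette on 1 or both alleles or at either NANOG locus, and they had been sorted for tdTomato. Before RNA extraction all cells were dissociated and held on plates for 1 hour so that feeder cells attached and could be left behind. The 3 knock-in libraries carry the names of 3 lines that, per the study's text, came from separately transfected cultures. For the other groups the labels do not say that the libraries came from separate cultures, so the p-values measure the spread between these libraries, which may be technical.

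Values are FPKM, fragments scaled to transcript length and to the mapped fragments of each library, in one table for knock-in and WT and another for Activin A and SB431542. Tests were made within a table only. No read counts were analysed here, and total depth is therefore unknown. From the commonest ratio of values under 0.3 FPKM, relative depth was 0.566 to 0.633 in WT, 0.732 to 1.00 in knock-in, 0.865 to 0.973 in Activin A and 0.841 to 0.946 in SB431542, with knock-in library 1 as the reference. Between 15339 and 15669 genes were above 0 in the WT libraries and between 15537 and 15827 in the others. NANOG, which checks the labels, was at 9.71, 16.4 and 27.6 FPKM in WT libraries 1 to 3, at 52.0, 101 and 70.4 in knock-in, at 109, 195 and 157 in Activin A and at 11.8, 27.2 and 11.8 in SB431542. In knock-in cells its level is also what the tdTomato sort selected on. Of 10 pluripotency markers 8 had a row, and their summed level was 170 to 214 FPKM in WT, 352 to 544 in knock-in, 342 to 536 with Activin A and 375 to 671 with SB431542. NANOG and LIN28A were called higher in knock-in, and DPPA5, TDGF1 and ZFP42 were under 1 FPKM in all 4 groups. Between Activin A and SB431542, NANOG was called higher with Activin A. When the library number was used as a block, 1 other marker was called lower with Activin A.

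In RefSeq's annotation of Sscrofa11.1, the pig build that the authors also used, the phosphatase genes lie at chr16:51457924-51461095 (DUSP1), chr15:55491084-55508460 (DUSP4), chr14:120906340-120919398 (DUSP5) and chr5:93303058-93307510 (DUSP6). SPRY2 lies at chr11:52153695-52158766, SPRY4 at chr2:143877334-143891280, ETV4 at chr12:19531507-19548303 and ETV5 at chr13:123873346-123930292. No other annotated gene overlaps the span of these 8 genes. SPRY1 (chr8:100449476-100863780) and SPRED1 (chr1:132903103-133016725) each overlap 1 other gene annotated by RefSeq. The authors computed FPKM with Ensembl's annotation, in which overlaps were not checked here. Whether reads were assigned by strand is not given in the sources used here, so it is not known whether the overlaps affect these values.

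Of the 10 genes, 8 were at 1 FPKM or more in every library. SPRY1 was under 1 FPKM in all 12 libraries, and DUSP5 in WT libraries 2 and 3. FPKM is scaled to gene length, so levels of different genes can be set side by side. SPRY4 was the most abundant member in knock-in cells, at 36.3 ± 2.80 FPKM (mean ± SD, n = 3), and in Activin A, at 38.2 ± 1.46.

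**Figure D1:**
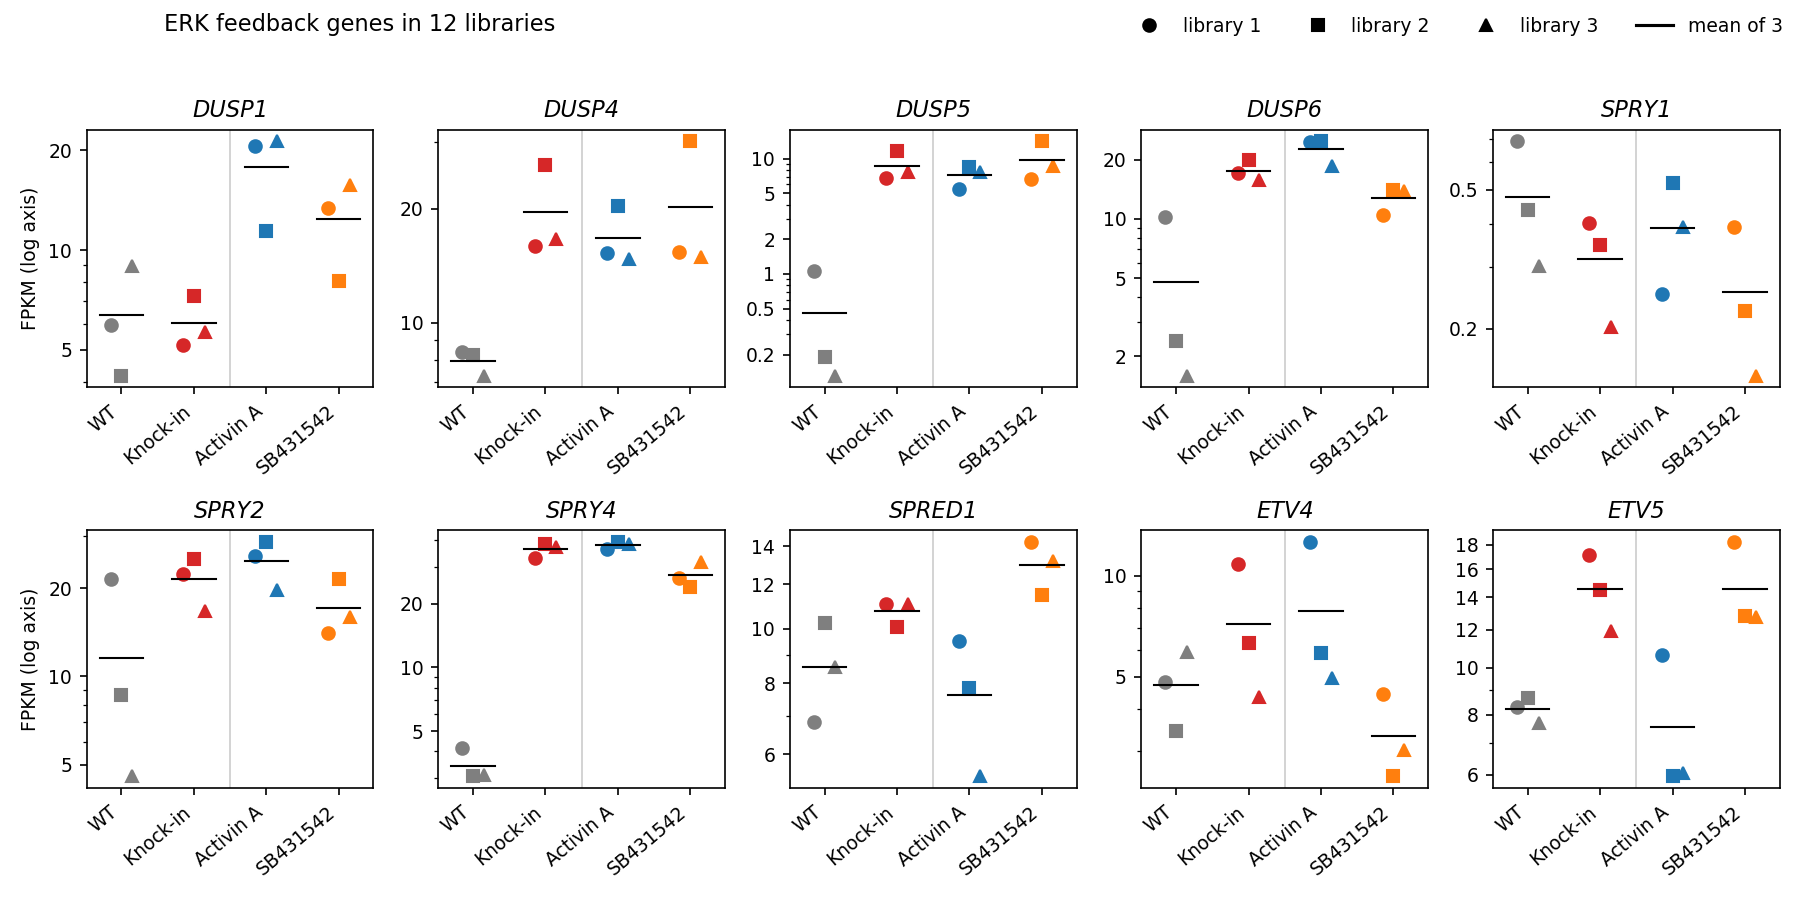
FPKM on a log axis for each of the 10 genes in WT, knock-in, Activin A and SB431542 libraries; symbols give the library number and lines the mean of 3, and the grey line separates the 2 expression tables. SPRY4, DUSP5, DUSP4 and DUSP6 in the 3 WT libraries lie below every other library, DUSP6 narrowly (10.3 FPKM in WT library 1, 10.5 in SB431542 library 1). Between Activin A and SB431542 the means of ETV4 and ETV5 differ in opposite directions, though neither gene was called.

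The first comparison, of knock-in with WT cells, asks how the reporter cells differ from the line they were made from. In it 3 members rose, SPRY4, DUSP5 and DUSP4, and none fell. A gene was called where the absolute log2 fold change of FPKM + 1 was at least 1 and limma's Benjamini-Hochberg adjusted p, over all 14014 genes tested, was at most 0.05. All 10 members were tested and 3 (30%) were called, where 2.31% of all tested genes were called, 1.61% higher and 0.706% lower. By the adjusted p alone 4 members passed, against 7.22% of all genes, and all 4 were higher in knock-in, against 4.88%. The median log2 fold change of the members was 0.90, and that of all tested genes was -0.00.

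The nuclear phosphatase DUSP5, which dephosphorylates and anchors ERK, was at 1.07, 0.189 and 0.131 FPKM in WT libraries 1 to 3 and at 6.83, 11.7 and 7.63 in knock-in. Every knock-in library exceeded every WT library, and WT library 1 stood above the other WT libraries. The mean was 18.9-fold higher in knock-in (54.5-fold without WT library 1), and the log2 fold change was 2.76 with a standard error of 0.28 (limma, adjusted p = 0.0048). Because 1 FPKM was added to levels that were mostly below it, this log2 value understates the change, and it was 4.77 with a pseudocount of 0.01.

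DUSP4, another nuclear phosphatase of ERK, was at 8.40, 8.22 and 7.26 FPKM in WT and at 16.0, 26.2 and 16.7 in knock-in. The groups did not overlap, and library 2 stood highest among the knock-in libraries. The mean was 2.46-fold higher and the log2 fold change was 1.17 ± 0.19 (SE; limma, adjusted p = 0.021). This call was made in 2 of the 6 fits that left out 1 library. It was lost without knock-in library 1 (adjusted p = 0.0501), WT library 1 (0.057) or WT library 2 (0.053), and without knock-in library 2 the log2 fold change was 0.95.

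DUSP6, the cytoplasmic phosphatase specific for ERK, was at 10.3, 2.39 and 1.59 FPKM in WT and at 17.2, 20.02 and 15.7 in knock-in. The knock-in libraries were all above the WT libraries, but WT library 1 stood far above the other WT libraries. The mean was 3.71-fold higher (8.85-fold without WT library 1), the log2 fold change was 2.00 ± 0.49 (SE) and the adjusted p of 0.053 from limma missed the threshold. Without WT library 1 the log2 fold change was 2.65 and the adjusted p 0.0047, and with a filter of 1 FPKM, which leaves fewer genes to adjust over, the adjusted p was 0.043. In the other 5 fits that left out 1 library the adjusted p was 0.081 to 0.15, and without WT library 3 the log2 fold change was 1.59.

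DUSP1, a phosphatase of JNK and p38 as well as of ERK that is also induced by stress, was at 5.94, 4.18 and 8.98 FPKM in WT and at 5.17, 7.26 and 5.64 in knock-in. The groups overlapped fully. The log2 fold change was -0.03 with a 95% confidence interval from -0.61 to 0.56 (limma, adjusted p = 0.96), and it ranged from -0.26 to 0.22 when 1 library was left out.

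Among the Sprouty genes, whose products block signalling between the receptor and RAF, SPRY4 was at 4.14, 3.06 and 3.09 FPKM in WT and at 33.1, 38.4 and 37.3 in knock-in. The lowest knock-in library was far above the highest WT library, and the libraries within each group were close together. The mean was 10.6-fold higher and the log2 fold change was 3.08 ± 0.14 (SE; limma, adjusted p = 0.00031). SPRY4 ranked 12 of 14014 genes by log2 fold change and 2 by p. SPRY4 and DUSP5 were called in all 6 fits that left out 1 library, with log2 fold changes of 3.02 to 3.19 and of 2.55 to 3.03.

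SPRY2 was at 21.4, 8.63 and 4.57 FPKM in WT and at 22.4, 25.1 and 16.7 in knock-in. WT library 1 lay within the range of the knock-in libraries, and the other WT libraries were below it. The log2 fold change was 1.06 ± 0.45 (SE; limma, adjusted p = 0.18), and without WT library 1 it was 1.59 with an adjusted p of 0.048. Leaving out any other library gave adjusted p-values of 0.21 to 0.36 from limma, and without WT library 3 the log2 fold change was 0.59. The ratio of SPRY4 to SPRY2, formed after the values had been seen, was 0.193, 0.354 and 0.675 in WT and 1.48, 1.53 and 2.23 in knock-in. These ranges did not overlap. Since the ratio was chosen for its values, its exact permutation p of 0.1, the lowest possible here, decides nothing.

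SPRED1, which keeps RAS inactive together with neurofibromin, was at 6.84, 10.2 and 8.55 FPKM in WT and at 11.05, 10.1 and 11.06 in knock-in. The groups overlapped by 1 library, and the log2 fold change was 0.31 with a 95% confidence interval from -0.06 to 0.68 (limma, adjusted p = 0.23), and it was 0.18 without WT library 1. SPRY1 was at 0.689, 0.436 and 0.303 FPKM in WT and at 0.400, 0.348 and 0.202 in knock-in (log2 fold change -0.16 ± 0.12 SE; limma, adjusted p = 0.43), with values of -0.24 to -0.06 when 1 library was left out.

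Of the ETS factors, which carry ERK activity into transcription, ETV5 was at 8.28, 8.65 and 7.70 FPKM in WT and at 17.2, 14.5 and 11.9 in knock-in. The groups did not overlap, and the mean was 1.77-fold higher. Its log2 fold change of 0.74 ± 0.15 (SE) passed the adjusted p (limma, 0.035) but not the fold threshold. The adjusted p was above 0.05 in 5 of the 6 fits that left out 1 library (0.052 to 0.13), all but that without knock-in library 3, and with no filter on low values (0.054). ETV4 was at 4.83, 3.44 and 5.93 FPKM in WT and at 10.9, 6.30 and 4.34 in knock-in. Knock-in library 3 lay within the WT range, and the log2 fold change was 0.46 ± 0.31 (SE; limma, adjusted p = 0.36). It was 0.15 without knock-in library 1, 0.28 without WT library 2 and 0.72 without knock-in library 3.

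In all, 5 of the 10 members (DUSP4, DUSP5, DUSP6, SPRY4 and ETV5) were higher in every knock-in than in every WT library, where 19% of all tested genes were, and none was lower in all, where 16.7% were. WT library 1 was the highest of the WT libraries for 6 members (the share over all genes was not computed). It also held the most of several immediate early transcripts, with FOS at 51.0 FPKM against 13.6 and 3.50 in the other WT libraries and EGR1 at 183 against 64.6 and 13.99.

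**Figure D2:**
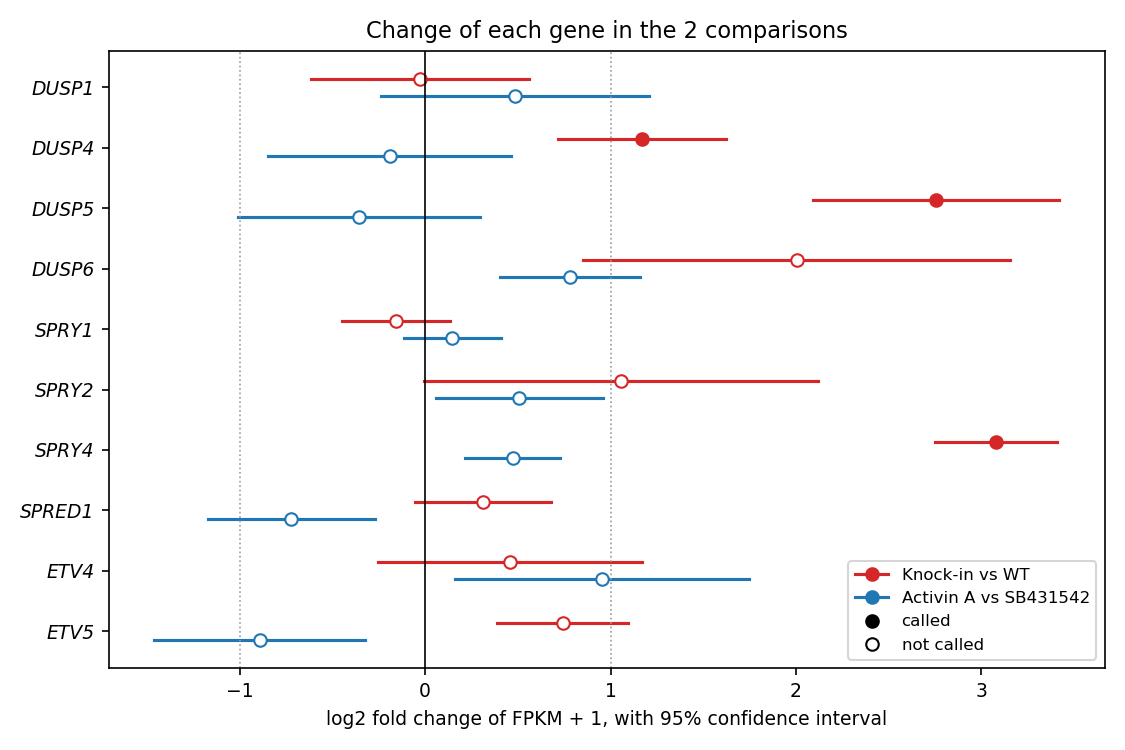
Log2 fold change of FPKM + 1 with its 95% confidence interval for each gene, knock-in against WT in red and Activin A against SB431542 in blue; filled points were called and dotted lines mark the fold threshold. SPRY4, DUSP5 and DUSP4 are the called members, at 3.08, 2.76 and 1.17, and the intervals of ETV4 and ETV5 lie on opposite sides of 0 in the second comparison.

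The second comparison, of Activin A with SB431542, asks what differs between knock-in cells with the Activin pathway stimulated or blocked. No member was called, where 0.0929% of all 13999 tested genes (13 genes) were, and none passed the adjusted p alone, where 0.136% did. At an unadjusted p of at most 0.05 from limma, 6 members passed, against 12.8% of all genes: DUSP6, SPRY4, SPRY2 and ETV4 had higher means with Activin A, and SPRED1 and ETV5 had higher means with SB431542. Libraries of the same number deviated together in these groups. When the number was used as a block, 99 genes (0.707%) were called and still no member was, but by the adjusted p alone 2 members passed, where 2.88% of all genes did. ETV5 was lower with Activin A, where 1.21% of all genes were, and DUSP1 was higher, where 1.66% were. The median absolute log2 fold change was 0.50 for the members and 0.12 for all tested genes.

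DUSP6 was at 24.7, 24.9 and 18.6 FPKM with Activin A and at 10.5, 14.1 and 13.9 with SB431542. The groups did not overlap, and Activin A was higher in each of the 3 numbered pairs, by 2.36-, 1.77- and 1.34-fold. The log2 difference was 0.78 ± 0.16 (SE; limma, adjusted p = 0.15 and, with the block, 0.073).

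DUSP1 was at 20.6, 11.4 and 21.3 FPKM with Activin A and at 13.4, 8.06 and 15.7 with SB431542. The groups overlapped because library 2 was lowest in both, whereas within pairs Activin A was higher by 1.53-, 1.41- and 1.36-fold. The log2 difference of 0.48 had a standard error of 0.30 without the block (limma, adjusted p = 0.55) and of 0.069 with it (adjusted p = 0.045). It was 0.23 without SB431542 library 2 and 0.76 without Activin A library 2.

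DUSP4 was at 15.3, 20.4 and 14.7 FPKM with Activin A and at 15.4, 30.2 and 15.0 with SB431542, and DUSP5 was at 5.41, 8.53 and 7.73 and at 6.64, 14.2 and 8.69. Both groups overlapped for each gene, with library 2 highest throughout. The log2 difference was -0.19 for DUSP4 with a 95% confidence interval from -0.85 to 0.47, and -0.36 for DUSP5 with an interval from -1.01 to 0.30 (limma, adjusted p = 0.81 and 0.63). With the block the intervals were -0.52 to 0.13 for DUSP4 and -0.68 to -0.04 for DUSP5 (limma, adjusted p = 0.41 and 0.18). When 1 library was left out, DUSP4 ranged from -0.36 to 0.12 and DUSP5 from -0.58 to -0.09, and both upper values came without SB431542 library 2. The 2 nuclear phosphatases that were called between knock-in and WT had means on the SB431542 side here, and DUSP6 on the Activin A side.

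SPRY4 was at 36.6, 39.4 and 38.5 FPKM with Activin A and at 26.6, 24.0 and 31.5 with SB431542. The groups did not overlap, and the mean was 1.39-fold higher with Activin A. The log2 difference was 0.47 ± 0.11 (SE; limma, adjusted p = 0.17, with the block 0.072). SPRY2 was at 25.6, 28.8 and 19.7 and at 14.1, 21.4 and 15.9 FPKM. The groups overlapped but each pair was higher with Activin A, and the log2 difference was 0.51 ± 0.19 (SE; limma, adjusted p = 0.34, with the block 0.094).

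SPRED1 was at 9.51, 7.86 and 5.48 FPKM with Activin A and at 14.3, 11.5 and 13.2 with SB431542, so that the groups did not overlap and SB431542 was higher in each pair. The log2 difference was -0.72 ± 0.19 (SE; limma, adjusted p = 0.21, with the block 0.079). SPRY1 was at 0.251, 0.524 and 0.391 FPKM and at 0.392, 0.224 and 0.147, and was the one member whose pairs did not all go the same way (log2 difference 0.15; limma, adjusted p = 0.62), with values of 0.08 to 0.22 when 1 library was left out.

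**Figure D3:**
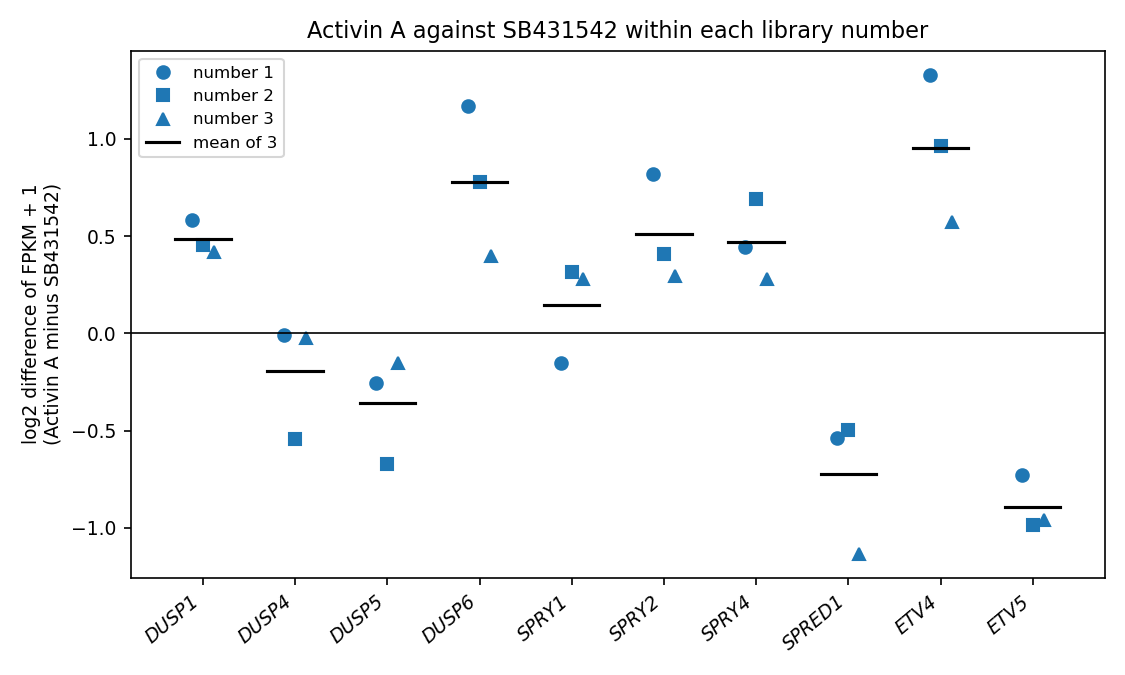
Log2 difference of FPKM + 1, Activin A minus SB431542, for each gene within library numbers 1, 2 and 3, with the mean of 3 as a line. For 9 of the 10 genes the 3 points lie on the same side of 0, a share that was not computed over all genes. Those of DUSP4, DUSP5, SPRED1 and ETV5 lie below 0, though DUSP4 is close to 0 in numbers 1 and 3 (-0.01 and -0.02). Those of DUSP1, DUSP6, SPRY2, SPRY4 and ETV4 lie above 0.

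ETV4 was at 12.7, 5.87 and 4.97 FPKM with Activin A and at 4.43, 2.52 and 3.02 with SB431542. The groups did not overlap, and within pairs ETV4 was 2.86-, 2.33- and 1.65-fold higher with Activin A. The log2 difference was 0.96 ± 0.33 (SE; limma, adjusted p = 0.32, with the block 0.057), and it was 0.59 without Activin A library 1.

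ETV5, which encodes a close relative of ETV4, went the other way, at 10.6, 5.97 and 6.05 FPKM with Activin A and at 18.2, 12.8 and 12.7 with SB431542. Every SB431542 library was above every Activin A library, and the pairwise ratios of Activin A to SB431542 were 0.581, 0.466 and 0.476. The log2 difference was -0.89 ± 0.24 (SE; limma, adjusted p = 0.21), and with the block the adjusted p was 0.025.

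The ratio of ETV4 to ETV5, also formed after the values had been seen, was 1.19, 0.984 and 0.821 with Activin A and 0.243, 0.197 and 0.237 with SB431542. It was 4.40-fold higher with Activin A by geometric means, with no overlap, which follows from the opposite directions for which the genes were chosen. For that reason its exact permutation p of 0.1, the lowest possible here, decides nothing. In knock-in cells the ratio was 0.634, 0.434 and 0.364 and in WT cells 0.583, 0.397 and 0.770, and these overlapped.

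**Figure D4:**
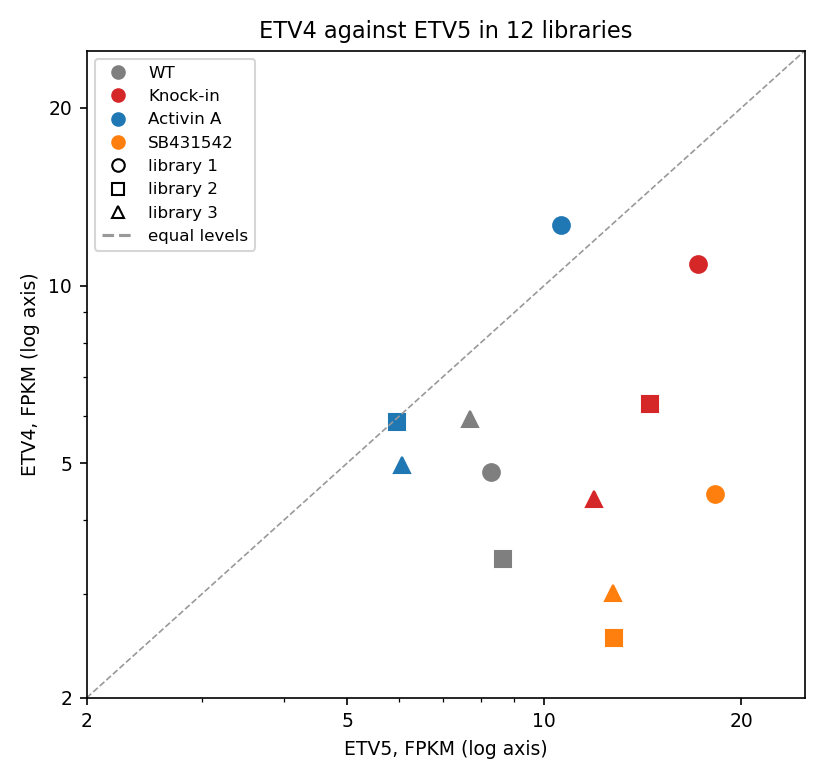
ETV4 against ETV5 in FPKM, both on log axes, for the 12 libraries; colours give the group, symbols the library number and the dashed line equal levels. Activin A libraries lie along the line of equal levels, with ratios of ETV4 to ETV5 from 0.821 to 1.19, and SB431542 libraries lie well to the right of it, with ratios from 0.197 to 0.243.

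Non-overlapping groups were found for 5 of the 10 members in this comparison, 3 higher with Activin A (DUSP6, SPRY4 and ETV4), where 9.19% of all tested genes were, and 2 lower (SPRED1 and ETV5), where 10.8% were. Across the 12 libraries, ETV4 and ETV5 had a Pearson correlation of only 0.06 in log2(FPKM + 1), but one of 0.84 once each value was taken relative to its group mean. DUSP6 and SPRY2 were the closest pair of members, at 0.94 over all libraries and 0.95 within groups. Within groups both varied most in WT. There the highest library was 6.45 times the lowest for DUSP6 and 4.69 times for SPRY2, against at most 1.35 and 1.52 in the other groups. These correlations describe 12 libraries that share their group structure.

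Set side by side over the 4 groups, with no test across the tables, the members fell into several orders. DUSP6, SPRY2 and SPRY4 had their highest mean with Activin A, then in knock-in, SB431542 and WT cells. For DUSP6 and SPRY4 Activin A and knock-in overlapped, and the later steps did not. For DUSP4 and DUSP5 the order was SB431542, knock-in, Activin A and WT, of which only the last step did not overlap. SPRED1 and ETV5 had their highest mean with SB431542, then in knock-in and WT, and their lowest with Activin A. Of these neighbours only SB431542 and knock-in for SPRED1, and knock-in and WT for ETV5, did not overlap. The ETV5 means were 14.59 FPKM with SB431542 and 14.53 in knock-in. ETV4 was highest with Activin A and lowest with SB431542, with overlap between each pair of neighbours, as for SPRY2, DUSP1 and SPRY1. In 6 members the same library number was highest in knock-in, Activin A and SB431542. It was number 2 for DUSP4, DUSP5, DUSP6 and SPRY2 and number 1 for ETV4 and ETV5. The share over all genes was not computed, and same-numbered Activin A and SB431542 libraries deviated together across the tested genes.

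The genes whose levels followed a member most closely were ranked among 10501 genes by Pearson r of log2(FPKM + 1) over the 12 libraries. For SPRY4 they were NR4A1 (0.986), MIDN (0.984) and TLNRD1 (0.979), and for DUSP6 they were IER2 (0.977), SMCR8 (0.968) and CCN1 (0.956). DUSP5 was followed by CDC20 (0.983), THBS1 (0.971) and DUSP3 (0.968), DUSP4 by EZR (0.963), PHLDA1 (0.962) and PTDSS1 (0.957), and SPRY2 by DUSP6 (0.945), PFDN2 (0.945) and FOS (0.941). Several of these, NR4A1, IER2, CCN1 and FOS, are immediate early genes, whose share among the 10501 genes was not computed. The r values include the differences between groups, such as the low levels of SPRY4, DUSP5 and DUSP6 in WT cells. The closest genes were SYNJ2 (0.926), SC5D (0.916) and PDK4 (0.914) for ETV5, KMT5B (0.923), CLIC4 (0.922) and UBAP1 (0.916) for SPRED1, and ADA (0.889), SMYD2 (0.883) and PJA1 (0.879) for ETV4. The closest gene was WDR59 (0.823) for DUSP1 and ACOT9 (0.890) for SPRY1.

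The rest of the pathway was read from lists compiled by role, whose counts stand against the same shares of all tested genes as those of the members. Of 17 tested ERK-responsive transcripts, 8 rose in knock-in and none fell, where 1.61% and 0.706% of all tested genes did, and the median log2 fold change was 1.41. FOSB, a component of AP-1, rose by 3.56 on the log2 scale, from 1.79, 0.0857 and 0 FPKM in WT to 13.6, 20.3 and 14.9 (limma, adjusted p = 0.0063). EGR3 rose by 3.55 (0.0048), IER2 by 2.39 (0.022) and SRF, the factor through which many of these genes are switched on, by 2.13 (0.00060). None of 18 tested components of the cascade itself was called, where 2.31% of all tested genes were, and their median was 0.02. By the adjusted p alone 1 was higher, where 4.88% of all genes were. It was ARAF, named after its values were seen, with a log2 fold change of 0.56 (limma, adjusted p = 0.048, with the block 0.071). Of 18 other feedback genes only ERRFI1, an inhibitor of EGF receptors, rose, by 2.07 (limma, adjusted p = 0.0068), from between 1.25 and 1.45 FPKM to between 6.20 and 12.6. Of 20 tested receptors and ligands 3 rose, the ligands PDGFB (3.03, adjusted p = 0.018) and FGF19 (2.90, 0.0041) and the receptor PDGFRB (1.64, 0.012).

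Between Activin A and SB431542 none of the genes on these 4 lists was called. With the block, 4 ERK-responsive transcripts were called and all were higher with Activin A, where 0.707% of all tested genes were called in either direction. FOS was at 111, 191 and 119 FPKM against 37.9, 51.0 and 38.0, a log2 difference of 1.68 (limma, adjusted p = 0.070, with the block 0.011), and EGR1 at 151, 328 and 304 against 53.4, 69.1 and 117 (1.69; 0.17, with the block 0.027). FOSB (1.46; 0.093 and 0.034) and EGR2 (1.38; 0.18 and 0.015) were the others. By the adjusted p alone with the block, 8 of the 17 were higher and 2 lower, where 1.66% and 1.21% of all genes were. The 2 lower were ETS1 and ETS2. Like them, ETV5 and ETV4 are ETS factors, and ETV5 was lower with Activin A but the mean of ETV4 was higher. Among the receptors and ligands 1 gene was higher and 2 were lower by that rule. The receptor gene KIT was higher (log2 difference 0.87; limma, adjusted p = 0.14, with the block 0.035), and FGF19 was lower (-0.78; 0.46, with the block 0.021). FGF2 was at 4.29, 4.36 and 3.31 FPKM with Activin A and at 7.56, 9.33 and 6.63 with SB431542 (log2 difference -0.82; limma, adjusted p = 0.14, with the block 0.029). FOS, EGR1, EGR2, ETS1, ETS2, KIT and FGF2 were singled out after their values had been seen. For reference, the SMAD target SMAD7 was called with a log2 difference of 1.80 (limma, adjusted p = 0.024), and LEFTY2 was listed at 0 in all 3 SB431542 libraries and at 1.37, 0.783 and 1.197 FPKM with Activin A.

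**Figure D5:**
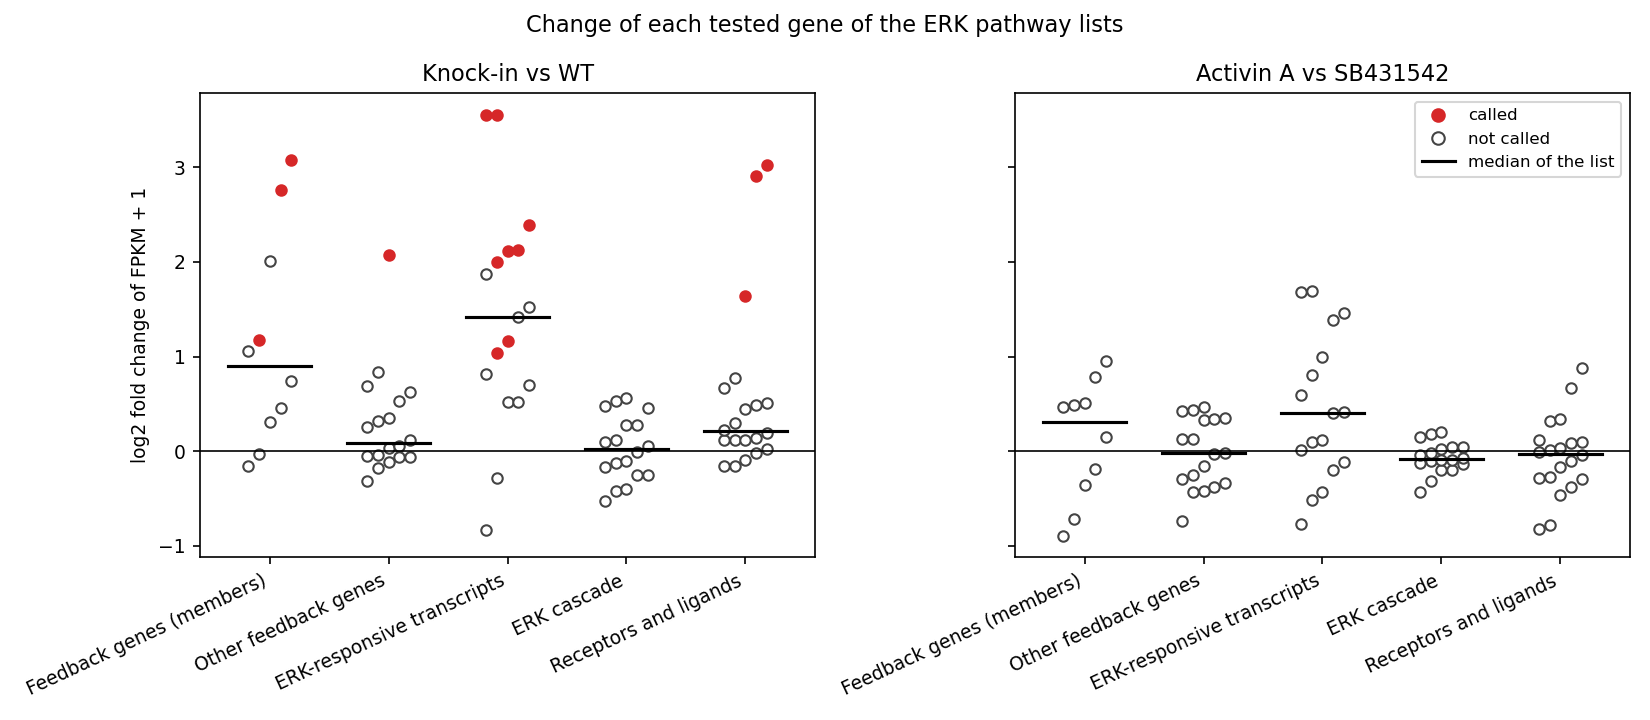
Log2 fold change of FPKM + 1 of each tested gene in 5 lists of the ERK pathway, for knock-in against WT on the left and Activin A against SB431542 on the right; red points were called and lines are medians. In knock-in against WT the members and the ERK-responsive transcripts have medians of 0.90 and 1.41 and the cascade 0.02, and in the other comparison no gene of these lists was called.

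Levels of other transcripts also differed between the groups. The summed level of 13 transcripts known to respond to cell dissociation, 1 further listed gene having no row, was 735 to 1067 FPKM in WT, 1244 to 1453 in knock-in, 1473 to 1959 with Activin A and 1116 to 1285 with SB431542. JUNB was at 0 in the WT and SB431542 libraries. In this list 5 of 12 tested genes were called higher in knock-in, led by FOSB, NR4A1, ATF3 and IER2. With the block 4 were called, all higher with Activin A, and several of its genes are also ERK-responsive transcripts. The summed level of 12 stromal markers was 28.2 to 41.6 FPKM in WT, 365 to 508 in knock-in, 368 to 464 with Activin A and 339 to 462 with SB431542, with DCN, PDGFRB, ACTA2 and TAGLN called higher in knock-in. Between Activin A and SB431542, ACTA2 was called lower with Activin A, at 9.28, 7.52 and 8.17 FPKM against 20.6, 18.7 and 18.9 (log2 difference -1.13; limma, adjusted p = 0.035), and with the block COL1A2 and COL3A1 were also called, both higher with Activin A. TAGLN alone was at 299 to 457 FPKM in knock-in, while LUM, PDGFRA and POSTN were under 1 FPKM in all 4 groups. Summed trophectoderm markers were 12.9 to 19.5 FPKM in WT, 77.5 to 513 in knock-in, 85.4 to 472 with Activin A and 121 to 946 with SB431542, with CDX2 at 0 throughout. TFAP2A and KRT8 were called higher in knock-in. With the block, GATA2 and TFAP2C were called higher and KRT8 lower with Activin A. The share of FPKM from mitochondrial genes was 13.9 to 16.4% in WT and 9.71 to 11.5% in knock-in. The part of dissociation, of cell composition and of depth in the differences of either comparison was not tested, and fewer cells of a type and less RNA per cell cannot be told apart in these bulk samples.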

How the data were processed

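FPKM per gene was taken as the authors deposited it, in 2 tables of 6 libraries. They trimmed reads with Trim Galore, aligned with HISAT2 2.0.4 to Ssc11.1 and ran StringTie 1.3.3. Their own comparisons, read counts tested with DESeq2, were not used here.

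The members and lists were chosen with earlier results of these data known. Genes with at least 0.1 FPKM in 3 of the 6 libraries of a table were tested on log2(FPKM + 1) with limma 3.58.1 (R 4.3.3), whose variance was allowed to follow mean expression. Calls needed an absolute log2 fold change of 1 and an adjusted p of 0.05. The 10 members were all named. From other lists up to 4 genes were named, those called in either comparison with the largest change. The 3 genes most like each member were also named, but only the closest for DUSP1 and SPRY1. Outside this rule, markers at 0 or under 1 FPKM and genes called only with the block were named after their values were seen, as were others marked so. A two-sided exact permutation test was also run for each member and each ratio, and its p cannot go below 0.1.

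Library numbers come from the labels. In Activin A and SB431542 the deviations of same-numbered libraries from their group means correlated across genes at 0.40, 0.59 and 0.53, so the numbers were taken to pair these libraries. Data were simulated with 200 genes changed by a log2 fold change of 2. For knock-in against WT limma recovered 189 with 2 false calls, and for Activin A against SB431542 184 with 1. With the block and an offset shared within each number, it recovered 172 with 5 false calls and 175 with 3. No member differed by as much between Activin A and SB431542, so the simulation does not show what could be detected there. Coordinates were matched by symbol in RefSeq. Figures were drawn with matplotlib 3.10.9. Other pseudocounts, filters and scalings, the block and leaving out each library were tried as alternatives.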

Additional observations from a re-analysis of the deposited data

How the results depend on the processing

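Between knock-in and WT, 2 to 4 members were called under every alternative run, and SPRY4 and DUSP5 were called under each of them. The number of all genes called was 324, and it was 538 and 501 with pseudocounts of 0.1 and 0.01, 199 with no filter, 1012 by the adjusted p alone and 145 to 446 when 1 library was left out. DUSP1, at -0.03, turned positive in TPM (0.0030) and ranged from -0.26 to 0.22 when 1 library was left out. Knock-in and WT libraries share only a number, since same-numbered deviations correlated at -0.018, 0.0087 and 0.094 and libraries did not all correlate best with their own number. With the replicate block 232 genes and 3 members were called, and the adjusted p of ETV5 was 0.057.

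Between Activin A and SB431542, no member was called under any alternative with both thresholds. With the replicate block the adjusted p alone passed 2 members and 403 of all genes, an alternative chosen after seeing the data. Both thresholds called 13 genes, and 99 with the replicate block, 8 with a pseudocount of 0.01, 5 with no filter, 5 with a filter of 1 FPKM, 7 without the variance trend and 0 to 5 without 1 library. DUSP4 ranged from -0.36 to 0.12 when 1 library was left out and was positive without SB431542 library 2. SPRY1 did not pass the filter of 1 FPKM. Depth is unknown, and SPRY1 in all libraries and DUSP5 in WT cells lie where it limits precision most. The cause of these shifts was not tested.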
